A study of Arabidopsis thaliana with 12 samples.

Results

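ARR15 (AT1G74890) and ARR16 (AT2G40670, listed as RR16) are the type-A response regulator genes that could be measured in this series of 12 Affymetrix arrays from Arabidopsis thaliana seedlings. They were chosen as the rows of the deposited table whose probe set is paired with exactly 1 gene, ARR15 or RR16, and each gene has 1 such row: probe set 13387433 for ARR15 and probe set 13403371 for RR16. They are 2 of 16550 genes tested and 2 of 38408 probe sets. The pair was picked because both genes had a lower signal in estradiol roots than in DMSO roots, so those root values are given below as a description, without a test.

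All seedlings of all 4 groups carry CLE2, which encodes a small secreted peptide of the CLE family, under an estradiol-inducible system; the labels give no promoter or line number. The seedlings were 7 days old and grown at 22 °C, and for the last 24 h their roots were in contact with β-estradiol (5 mM by the labels) or with DMSO, its solvent. Roots and shoots were then collected apart, which gave 3 arrays each of Root DMSO, Root Est, Shoot DMSO and Shoot Est. The series was made to find genes downstream of CLE2; no seedlings without the inducible gene were analysed here, so estradiol and CLE2 induction cannot be told apart.

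Cytokinins are plant hormones that are perceived by membrane histidine kinases. The signal passes by phosphate transfer through histidine phosphotransfer proteins to type-B response regulators, which are transcription factors. Type-A response regulators such as ARR15 and ARR16 are among the genes that type-B regulators switch on, and they in turn dampen the pathway, so their transcripts are widely used as a readout of cytokinin signalling. In the shoot meristem ARR15 is known as a target that the transcription factor WUSCHEL represses, and ARR16 is known from the stomatal lineage of young leaves.

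No probe set is paired with CLE2 alone, so its induction could not be used to check the treatment labels. The organ labels could be checked: all 9 measured green tissue markers had higher means on Shoot DMSO than on Root DMSO arrays, by 2.09 to 3.67 log2 units, and all 4 measured root markers had lower means there, with shoot-minus-root differences from -2.62 to -4.72. The 9 green tissue markers are what was measured of a list of 51, and the 4 root markers of a list of 25. The labels do not tell how independent the replicates are, and p-values here measure the spread between these arrays, which may be technical. In tissue samples like these, fewer cells that express a gene and less transcript per cell cannot be told apart.

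ARR15 and RR16 were both far higher in shoots than in roots, whether the roots had received DMSO or estradiol. RR16 lay at 4.20, 4.26 and 4.49 on the 3 Root DMSO arrays and at 8.19, 8.04 and 8.50 on the 3 Shoot DMSO arrays (deposited log2 signal, replicates 1 to 3). The 2 ranges do not come near each other. ARR15 lay at 4.52, 3.78 and 4.13 on the Root DMSO arrays and at 6.40, 6.27 and 6.20 on the Shoot DMSO arrays. Here, too, the lowest shoot array stood above the highest root array; over all genes, 30.3% had every Shoot DMSO value above every Root DMSO value.

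Under DMSO the shoot signal of RR16 exceeded its root signal by 3.92 ± 0.25 log2 units (SE), which is 15.2-fold (limma over all 12 arrays, adjusted p = 1.03e-07; 95% confidence interval 3.38 to 4.47). For ARR15 the excess was 2.14 ± 0.21 log2 units, or 4.41-fold (limma, adjusted p = 5.23e-06; 95% confidence interval 1.67 to 2.61). Both genes thus passed the threshold of an adjusted p under 0.05 in the direction of higher in shoots, as did 25.8% of all genes tested. The median difference between Shoot DMSO and Root DMSO over all genes was 0.09 log2 units. Subtracting each array's median moved that overall median to 0.29, and the differences of RR16 and ARR15 to 4.13 and 2.34.

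The organ gap was also present in the seedlings whose roots received estradiol. RR16 lay at 3.99, 3.85 and 2.90 on the Root Est arrays and at 8.09, 7.93 and 8.31 on the Shoot Est arrays, a difference of 4.53 ± 0.25 log2 units (SE; limma, adjusted p = 3.11e-08). ARR15 lay at 2.97, 3.07 and 3.76 on the Root Est arrays and at 6.03, 5.99 and 5.89 on the Shoot Est arrays, a difference of 2.70 ± 0.21 (limma, adjusted p = 7.45e-07). Of all genes, 26.0% passed the threshold as higher in shoots in this comparison, and 30.8% had every shoot value above every root value. Adding 16 to the linear values, which compresses dim signals, lowered the organ difference of ARR15 to 1.60 under estradiol and 1.47 under DMSO, and that of RR16 to 3.37 and 3.15. The organ comparisons share the root arrays with the comparison on which the genes were picked. Picking genes with lower Root Est than Root DMSO values favours a larger organ difference under estradiol than under DMSO.

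On the linear scale, the mean root signal of ARR15 was 23.1% of its mean shoot signal under DMSO and 15.9% under estradiol. For RR16 these shares were 6.55% and 4.53%. The shares contain the root values on which the genes were picked, so their fall under estradiol is a description. The pooled within-group SD of ARR15 was 0.40 log2 units in roots and 0.09 in shoots, and that of RR16 was 0.43 and 0.21. The root SD of RR16 rests on Root Est replicate 3: without that array, in a check chosen after the values were seen, it was 0.14, below the shoot SD, while that of ARR15 was 0.30. Among the 2151 genes with a root mean within 0.5 log2 units of that of ARR15, the median SD was 0.23, and 8.88% had a larger SD than ARR15. For RR16, 5.88% of the 2006 genes in the matching root window had a larger SD. In shoots ARR15 belonged to the steadier genes, with 87.9% of its window showing a larger SD, and RR16 to the more scattered ones, with 5.14%.

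**Figure D1:**
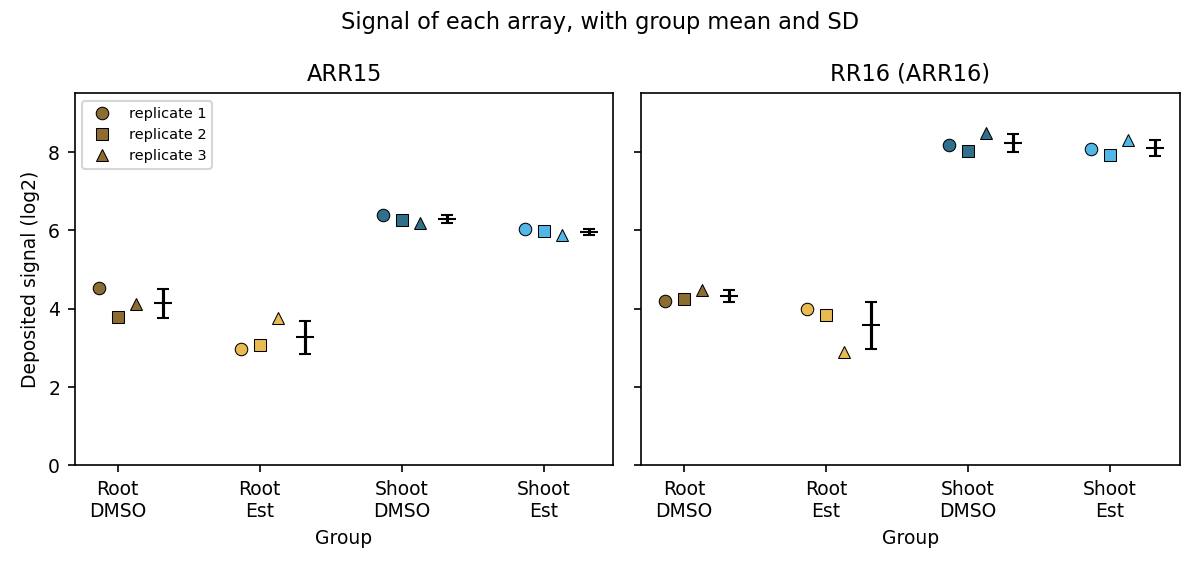
Deposited log2 signal (vertical axis) of ARR15 and RR16 on each of the 12 arrays, by group (horizontal axis); the symbol shape gives the replicate number, and the bars beside the points give the group mean ± SD (n = 3). All 6 shoot arrays stand above all 6 root arrays for both genes, and the root points of RR16 spread from 2.90 to 4.49.

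From lowest to highest mean, the groups came in the same order for both genes: Root Est, Root DMSO, Shoot Est, Shoot DMSO. The means of ARR15 in that order were 3.27 ± 0.43, 4.15 ± 0.37, 5.97 ± 0.07 and 6.29 ± 0.10 (log2 signal, SD, n = 3). Those of RR16 were 3.58 ± 0.60, 4.32 ± 0.15, 8.11 ± 0.19 and 8.24 ± 0.23. The shoot neighbours in this order were not separated by the test, as described next. The root neighbours were not tested, since their order is the one on which both genes were picked.

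In the shoots of the seedlings whose roots were in contact with estradiol or DMSO, neither gene passed the threshold. Whether estradiol reached the shoots or induced CLE2 there was not tested. The 3 ARR15 values under estradiol (5.89 to 6.03) were all below the 3 values under DMSO (6.20 to 6.40). The groups of ARR15 therefore did not overlap, as was the case, in the lower direction, for 6.37% of all genes. The difference was -0.32 ± 0.21 log2 units (SE; limma, adjusted p = 0.668; 95% confidence interval -0.79 to 0.15). For RR16 the groups overlapped, with values from 7.93 to 8.31 under estradiol and from 8.04 to 8.50 under DMSO. Its difference was -0.13 ± 0.25 (limma, adjusted p = 0.908; 95% confidence interval -0.68 to 0.41). These intervals, which rest on a spread shared with the root arrays, reach down to -0.79 and -0.68 log2 units. Over all genes, 0.163% passed the threshold in shoots in either direction and 0.0302% as lower.

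The spread behind the ARR15 test in shoots is shared with the more scattered root arrays. With the 6 shoot arrays fitted alone, its standard error was 0.10 in place of 0.21, and the adjusted p was 0.558. The difference of RR16 in shoots ranged from -0.24 to -0.01 as single arrays were left out.

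In the treated roots, both genes had lower values on the estradiol arrays; these are the values that chose the pair. The 3 Root Est values of ARR15 (2.97, 3.07 and 3.76) lay below its 3 Root DMSO values (4.52, 3.78 and 4.13), but the highest of the former and the lowest of the latter differed only in the second decimal, 3.76 against 3.78. The difference of means was -0.88 ± 0.21 log2 units (SE), a 1.84-fold lower signal. The Root Est values of RR16 (3.99, 3.85 and 2.90) lay below its Root DMSO values (4.20, 4.26 and 4.49), with a difference of -0.74 ± 0.25, a 1.67-fold lower signal. These standard errors rest on a spread shared with the shoot arrays. With the root arrays fitted alone, they were larger, 0.26 for ARR15 and 0.28 for RR16. Groups that do not overlap in the lower direction were found for 7.05% of all genes in roots. The median root difference over all genes was -0.01, and 0% of them passed the threshold (limma, 0 of 16550; 855 had an unadjusted p under 0.05).

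Leaving out Root Est replicate 3 or Root DMSO replicate 1 moved the root differences of ARR15 and RR16 in opposite directions. Root Est replicate 3 gave the lowest of all RR16 values, 2.90, and the highest Root Est value of ARR15, 3.76. Without that array the root difference of RR16 was -0.40 in place of -0.74, and that of ARR15 was -1.12 in place of -0.88. Root DMSO replicate 1 gave the highest root value of ARR15, 4.52, and the lowest Root DMSO value of RR16, 4.20; without it the root difference of ARR15 was -0.69 and that of RR16 was -0.80. When 16 was added to the linear values, the root differences were -0.39 for ARR15 and -0.34 for RR16.

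**Figure D2:**
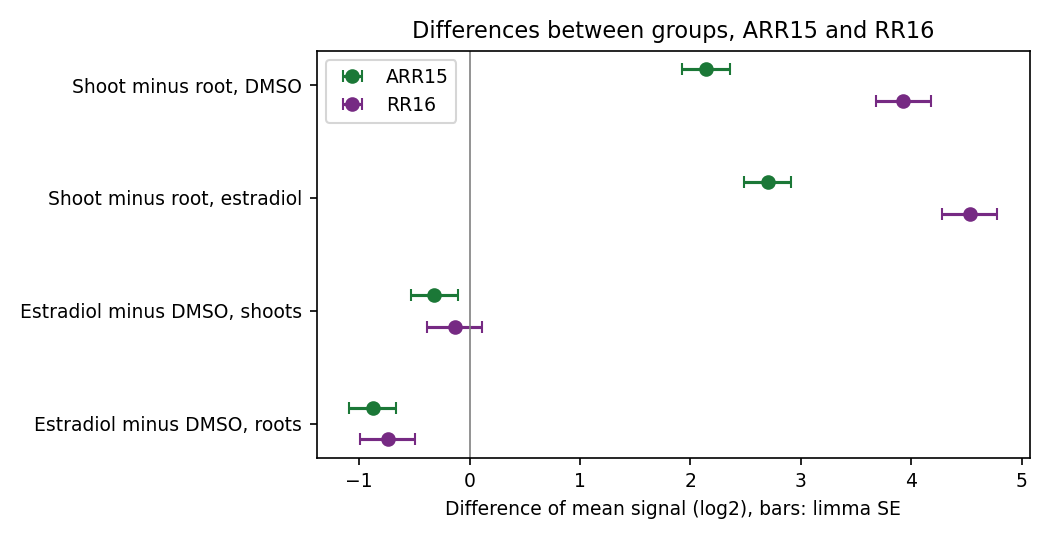
Differences of group means for ARR15 and RR16 (horizontal axis, log2 units) in 4 comparisons (vertical axis); bars are limma standard errors, with 3 arrays per group. The shoot-minus-root differences run from 2.14 to 4.53, and the estradiol-minus-DMSO differences from -0.13 to -0.88, of which the root ones chose the genes and were not tested.

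Because both genes are higher in shoots, the green tissue markers were read on the root arrays beside the root values. Whether their signal there came from shoot tissue was not tested. The mean of the 9 green tissue markers was 7.68, 8.19 and 8.01 on the Root DMSO arrays and 7.85, 8.18 and 7.87 on the Root Est arrays (log2 signal, replicates 1 to 3). The 2 groups overlapped. The array with the lowest green marker mean held the highest ARR15 value in roots and the lowest Root DMSO value of RR16, 4.20. The summed linear signal of these markers ranged from 2443 to 3612 on Root DMSO arrays, from 2789 to 3495 on Root Est arrays, and from 22297 to 22959 on both kinds of shoot array, and none of the markers was at 0.

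A second set, 25 genes chosen on these arrays for a shoot mean at least 5 log2 units above the root mean, was read on the same arrays. Its median reached 4.56 on Root DMSO replicate 3, while the remaining 5 root arrays ranged from 3.53 to 3.89. Root DMSO replicate 3 also held the highest root value of RR16, 4.49, while its ARR15 value of 4.13 was the middle one of the Root DMSO group. Without that array the root difference was -0.65 for RR16 and -0.89 for ARR15, against -0.74 and -0.88 with it. The part of shoot signal in the root values was not tested.

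**Figure D3:**
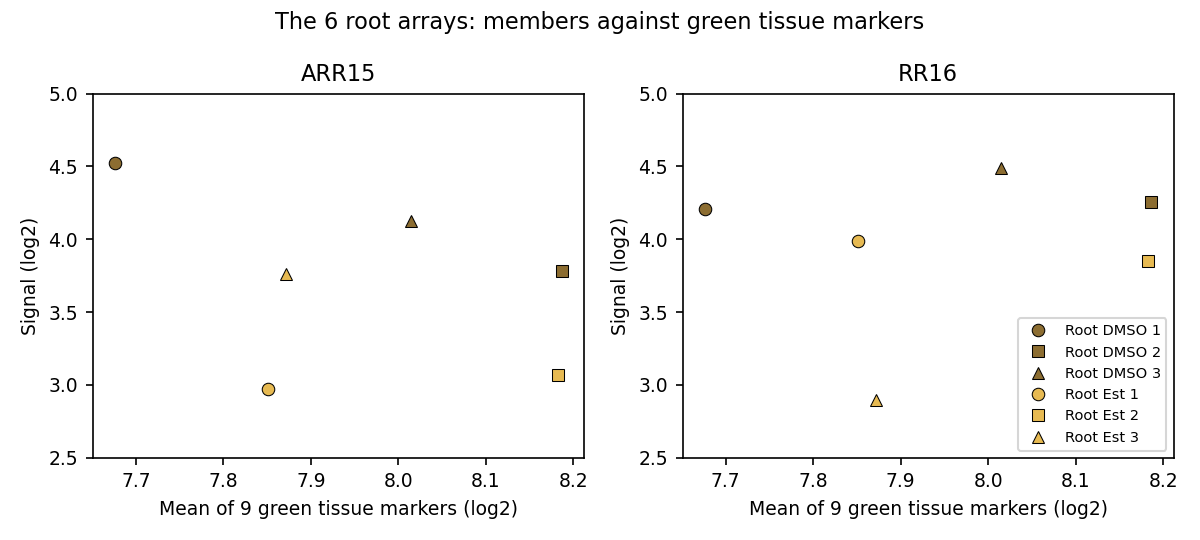
Signal of ARR15 (left) and RR16 (right) on the 6 root arrays (vertical axis, log2) against the mean of the 9 measured green tissue markers on the same array (horizontal axis, log2); colour gives the treatment and symbol shape the replicate. ARR15 is highest on Root DMSO replicate 1, where the green markers are lowest at 7.68 and RR16 has its lowest Root DMSO value, 4.20. RR16 is lowest of all on Root Est replicate 3.

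The root difference minus the shoot difference was -0.56 ± 0.30 log2 units (SE) for ARR15 and -0.60 ± 0.35 for RR16. Since it contains the root values that chose the genes, it was not tested. Without Root DMSO replicate 1 it was -0.37 for ARR15, and without Root Est replicate 3 it was -0.26 for RR16. With 16 added to the linear values it was -0.13 for ARR15 and -0.22 for RR16.

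Few other genes of the pathway could be read. A list of 93 cytokinin genes, ordered by role, had 11 measured members, ARR15 and RR16 included. None of the listed receptors, phosphotransfer proteins, cytokinin response factors, synthesis enzymes, LOG activating enzymes or KMD F-box genes was among the genes tested, and neither were the other 8 type-A regulators. The 9 remaining genes were the type-B regulators RR18, RR19 and RR21, the type-C regulators RR22 and RR24, the N-glucosyltransferases UGT76C1 and UGT76C2, which inactivate cytokinins, and AT1G02630 and AT2G40230, which the gene table gives without a symbol and which were placed by locus among the transport genes and the cytokinin-induced genes.

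In roots, 0 of these 9 genes passed the threshold between estradiol and DMSO (limma, smallest adjusted p = 0.921; 1 had an unadjusted p under 0.05), where 0% of the 16550 genes passed and 855 had an unadjusted p under 0.05. Their median root difference was -0.07, against -0.01 over all genes, and single values ran from -0.40 for RR24 to 0.51 for RR21. RR21 lay at 1.29, 1.90 and 2.04 on Root DMSO arrays and at 2.12, 2.42 and 2.24 on Root Est arrays, which is close to the bottom of the signal range. AT2G40230, the brightest of the 9 in roots, lay at 8.27, 8.45 and 8.10 on Root DMSO arrays and at 7.95, 8.04 and 8.07 on Root Est arrays. Its difference was -0.25 ± 0.12 (SE; limma, adjusted p = 0.999). The root groups of 4 of the 9 genes did not overlap: AT2G40230 and RR24 were lower on the estradiol arrays, as were 7.05% of all genes, and RR21 and AT1G02630 higher, as were 5.29%. AT1G02630 had a root difference of 0.37.

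In shoots, too, 0 of the 9 passed (limma, smallest adjusted p = 0.221; 2 had an unadjusted p under 0.05), where 0.163% of the 16550 genes passed and 1647 had an unadjusted p under 0.05. The median shoot difference was 0.10, against -0.00 over all genes. AT2G40230 lay at 6.27, 6.33 and 6.56 on Shoot DMSO arrays and at 6.03, 5.77 and 6.02 on Shoot Est arrays, a difference of -0.45 ± 0.12 (SE). RR22 lay at 2.75, 2.63 and 2.64 and at 2.20, 2.27 and 2.37, a difference of -0.40 ± 0.14. For both of these genes every estradiol value lay below every DMSO value, as for 6.37% of all genes. For UGT76C1, at 6.69, 6.72 and 6.66 under DMSO and at 6.99, 6.76 and 6.73 under estradiol, every estradiol value lay above, as for 6.85% of all genes. The other type-B and type-C regulators had shoot differences of 0.10 for RR18, -0.15 for RR19, 0.07 for RR21 and 0.20 for RR24. UGT76C1 and UGT76C2 were at 0.13 each, and AT1G02630 was at 0.12.

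Between the organs, most of these genes differed. Under DMSO, 7 of the 9 were higher in shoots, 1 was lower and 1 did not pass (limma, adjusted p under 0.05; over all genes, 25.8% were higher in shoots and 26.6% lower), with a median shoot-minus-root difference of 0.54 log2 units against 0.09 over all genes. The 7 were higher by less than 1 log2 unit: AT1G02630 by 0.76, RR21 by 0.73, RR22 by 0.56, RR18 by 0.55, UGT76C1 by 0.54, UGT76C2 by 0.49 and RR19 by 0.38. Of these, RR21, RR22 and RR19 were dim in both organs. Their Root DMSO and Shoot DMSO means were 1.75 and 2.48, 2.12 and 2.68, and 3.05 and 3.43, in that order of genes. The one lower gene was AT2G40230, with a mean of 8.27 ± 0.18 in roots and 6.38 ± 0.15 in shoots (log2 signal, SD, n = 3; limma, adjusted p = 1.03e-07). RR24 had a difference of -0.11 ± 0.27 (SE). Under estradiol 4 of the 9 were higher in shoots (RR18, RR19, UGT76C1 and UGT76C2; 26.0% of all genes were), 1 was lower (AT2G40230, as were 26.5% of all genes) and 4 did not pass.

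**Figure D4:**
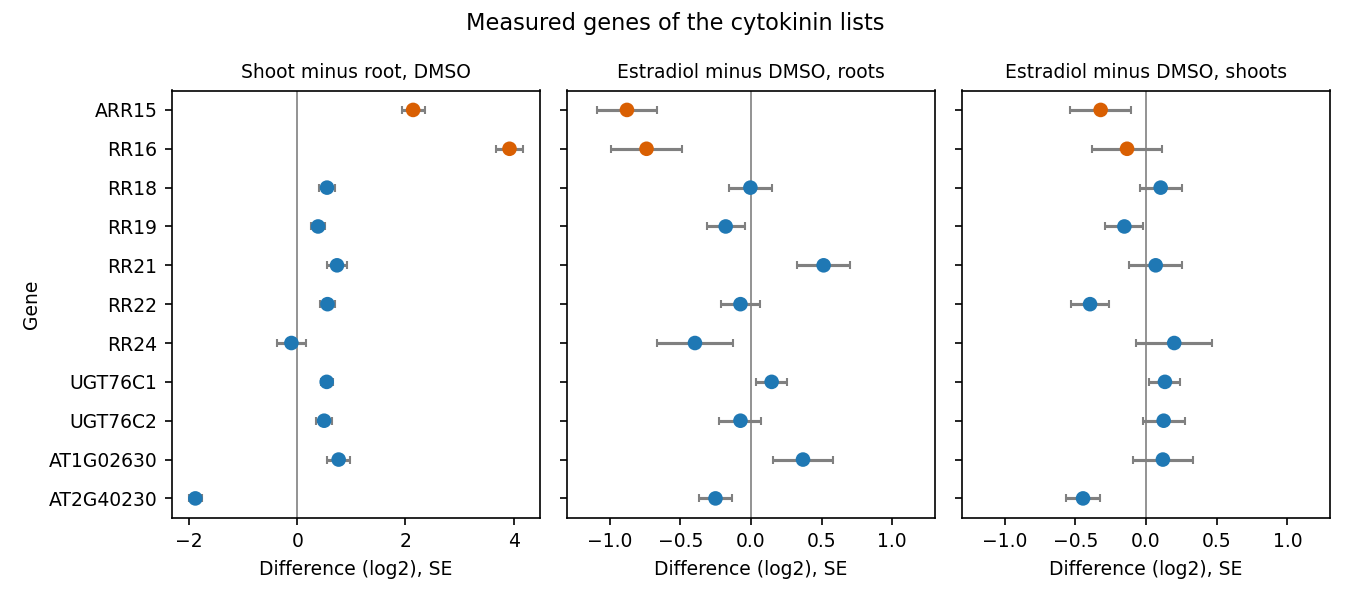
Differences of group means (horizontal axes, log2 units; bars are limma standard errors, n = 3 per group) for the 11 measured genes of the cytokinin lists (vertical axis), with ARR15 and RR16 in orange and the other 9 in blue; the axis of the organ panel is wider. ARR15 and RR16 have the largest shoot excess of the 11 genes, 2.14 and 3.92, and AT2G40230 is the one gene whose root excess passed the threshold.

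The genes whose signal ran most like that of the pair were sought among all genes tested, by Pearson correlation of log2 signal. Over the 12 arrays the organ gap sets this measure: 1920 genes had a correlation above 0.9 with ARR15 and 2256 with RR16, and ARR15 and RR16 had a correlation of 0.946 with each other. The 5 genes most like ARR15 were AT3G09250, AT2G22610, AT5G02860, ATLP-1 and AT1G80280, with correlations of 0.983 to 0.984. The 5 most like RR16 were LPA2, AT5G24570, PyrD, AT2G45600 and AT2G20920, with correlations of 0.994 to 0.996. The shoot-minus-root differences of these 10 genes under DMSO ran from 0.54 for AT2G22610 to 2.58 for AT2G45600. All were smaller than that of RR16, 3.92, but AT2G45600 and LPA2 (2.46) exceeded that of ARR15, 2.14.

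After each organ's mean was subtracted from its 6 arrays, the correlation between ARR15 and RR16 was 0.242 over the 12 arrays, and 4423 genes followed ARR15 more closely than RR16 did. The 5 genes closest to ARR15 on this measure were TAAC, AT1G64405, AT5G02860, AT5G57970 and SP1L2, with correlations of 0.894 to 0.923. Those closest to RR16 were AT3G16800, AT1G77122, LPA2, AT2G16586 and AT2G16505, with correlations of 0.881 to 0.917. AT5G02860 and LPA2 appear by both measures, for ARR15 and RR16 respectively. The points of a gene pair share the same arrays, so these values describe the arrays and carry no test. Both measures also hold the root values on which the pair was picked. Subtracting organ means does not remove the difference between estradiol and DMSO roots.

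The nearest protein-coding neighbours that were measured had smaller organ differences. OTP43, which lies next to ARR15 in RefSeq's gene order of assembly TAIR10.1, had a shoot-minus-root difference of 0.51 under DMSO and a root estradiol difference of 0.02. AT2G40660, next to RR16, had 0.30 and 0.06. The neighbours on the other sides were not among the genes tested.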

How the data were processed

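The authors deposited 1 log2 signal per probe set and array, between 0.339 and 14.1, and the submitters' processing notes name Affymetrix Expression Console 1.3. How probes were summarized and arrays normalized is not given in the sources used here. The number of arrays limits the precision.

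Of 38408 probe sets, GEO's platform annotation pairs 16722 with 1 gene, 759 with several and 20927 with none. Only the first were tested, keeping for each gene the probe set with the highest mean (16550 genes). Names were updated through RefSeq's table of TAIR10.1, which holds 16411 of them.

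Limma 3.58.1 in R 4.3.3 (lmFit, eBayes) was fitted over 12 arrays with a mean per group and 8 residual degrees of freedom, without a filter on dim genes. Adjusted p-values are Benjamini-Hochberg values over all 16550 genes. The code was tested on simulated data. Alternatives changed the arrays fitted, the replicate block, variance model, array weights, normalization, filter, probe sets and offset.

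The pair, the gene lists and the tests were chosen with earlier results of these data known. All measured genes of the cytokinin lists were named, and for likeness the 5 genes with the highest Pearson correlation per gene and measure.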

Additional observations from a re-analysis of the deposited data

How the results depend on the processing

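No difference of ARR15 or RR16 changed sign, and the tested ones stayed on their side of the threshold, over 22 alternatives for the estradiol effects and 20 for the organ and root minus shoot differences, which cannot be had with each organ fitted alone and were not fitted with a block within each organ. Many alternatives cannot change a difference by construction, such as a replicate block, another variance model or leaving out an array of a group not compared. In those only the standard error and adjusted p can move, so the unchanged sign carries no information there. In shoots ARR15 ranged from -0.37 to -0.26 (limma, adjusted p 0.408 to 0.813) and RR16 from -0.24 to -0.01 (0.81 to 0.999). The organ difference under DMSO ranged from 1.47 to 2.34 for ARR15 and from 3.15 to 4.13 for RR16; under estradiol it ranged from 1.60 to 2.94 and from 3.37 to 4.73. Adding 16 to the linear value moved the ARR15 root difference to -0.39, and the root minus shoot difference to -0.13 for ARR15 and -0.22 for RR16; the construction compresses dim values. With dim genes left out, 4 pathway genes were higher in shoots under DMSO in place of 7, since 5 of the 9 were then tested. With all 9 tested, the number was 5 after quantile normalization, 5 with 16 added to the linear values and 5 without Root DMSO replicate 2. Same-numbered arrays had residual correlations of 0.027 to 0.137 within an organ and 0.018 to 0.100 between organs. All were small but positive, and the main fit did not take the numbers as pairs. By replicate number, the shoot differences were -0.37, -0.28 and -0.31 for ARR15 and -0.10, -0.11 and -0.19 for RR16. With the replicate number as a block, the ARR15 difference in shoots was -0.32 (limma, adjusted p = 0.629). The dim root signals limit what can be read there.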
